A study of Homo sapiens with 6 samples.

Results

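Expression of the semaphorin receptors was examined in SW480 Clone 13 cells, in which KIAA1199 is switched on by doxycycline. The genes were 6 plexins (*PLXNA1*, *PLXNA2*, *PLXNA3*, *PLXNB1*, *PLXNB2* and *PLXND1*), the neuropilins *NRP1* and *NRP2*, and the ligand gene *SEMA3A*. They were chosen as named genes of this receptor system, through the Ensembl identifier of each, and all 9 were found among the 26445 probe sets of the deposited table, which holds a single value per gene and array. The parental SW480 line comes from a human colorectal carcinoma. Clone 13 is a single clone that carries both a tetracycline repressor, selected with blasticidin S, and the KIAA1199 construct, selected with G418, so these are shared by both groups. Doxycycline cells had received 50 ng/ml of the drug for 48 h according to the labels, uninduced cells are those labelled non induced, and each of 3 independent experiments gave an array of either kind. The treatment text of the labels is the same for all 6 arrays, so the groups rest on the sample titles. The authors cite an earlier report that doxycycline in their dose range left transcript levels on arrays unaffected. No array was made of repressor-only cells given doxycycline, and an effect of the drug and an effect of KIAA1199 cannot be told apart here.

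Plexins are single-pass cell surface receptors whose extracellular sema domain binds semaphorins and whose cytoplasmic part holds a GTPase-activating domain. Their activation lowers integrin-based adhesion and rearranges the actin cytoskeleton, which is how semaphorins repel growing axons and how they influence epithelial and endothelial migration. Most secreted class 3 semaphorins, SEMA3A among them, need a neuropilin to form the complex with a class A plexin, whereas class B plexins bind class 4 semaphorins directly. PLXNA2 is of particular interest in this study because a yeast two-hybrid screen cited by its authors had named it as a partner of KIAA1199.

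The values are log2 expression levels, so a difference of 1 is a doubling. The arrays shared a median level of 5.66 and a common distribution, and any pair of them correlated with an r between 0.984 and 0.989 over the probe sets. Each gene was compared between doxycycline and uninduced cells with limma, with the experiment as a block, fitted on the whole table. The limits used by the study, an unadjusted p under 0.025 with a change of at least 1.2-fold, were passed by 5.83% of all probe sets in either direction and by 2.9% in the upward direction. At a Benjamini-Hochberg adjusted p under 0.05 no probe set passed with limma (0 of 26445, against 3248 with an unadjusted p under 0.05) or with the methods' t-test (0, against 2755). Accordingly, the statements on single genes below rest on unadjusted p-values and on the spread among the arrays, of which there were only 3 per group.

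Transcripts of the 6 plexins examined were mostly higher with doxycycline. Of the 9 genes, *PLXNA1* and *PLXNB2* passed the study's limits in limma, both upward (1.27-fold and 1.26-fold), and none passed them downward. Neither *PLXNA1* nor *PLXNB2* is on the study's own list of changed genes. An unadjusted p under 0.05 was reached by 4 of the 9 (*PLXNA1*, *PLXNA3*, *PLXNB1* and *PLXNB2*), against 12.3% of all probe sets. Without the block 3 of the 9 passed the study's limits, against 3.97% of all probe sets, and with the methods' t-test 0 of the 9, against 2.18%. Of the 6 plexins, 5 had higher levels in the doxycycline than in the uninduced array of every experiment, the exception being *PLXNA2*. Both neuropilins were also higher in all 3 experiments, by a mean of 0.15 (*NRP1*) and 0.11 (*NRP2*) on the log2 scale, and *SEMA3A* was lower in experiment 1 and higher in the other two. Thus 7 of the 9 genes were higher in all 3 experiments, as were 18.9% of all probe sets. For 6 of the 9, the lowest doxycycline array lay above the highest uninduced array, which was the case for 8.64% of all probe sets. The median log2 fold change was 0.15 over the 9 genes and 0.24 over the 6 plexins, against 0.0017 over all probe sets. These counts are descriptive, because the genes were named with results of these arrays known, and genes of the same arrays are not independent of each other. In RNA from whole cultures, a change in every cell and a change in the share of cells that hold a transcript cannot be told apart.

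**Figure D1:**
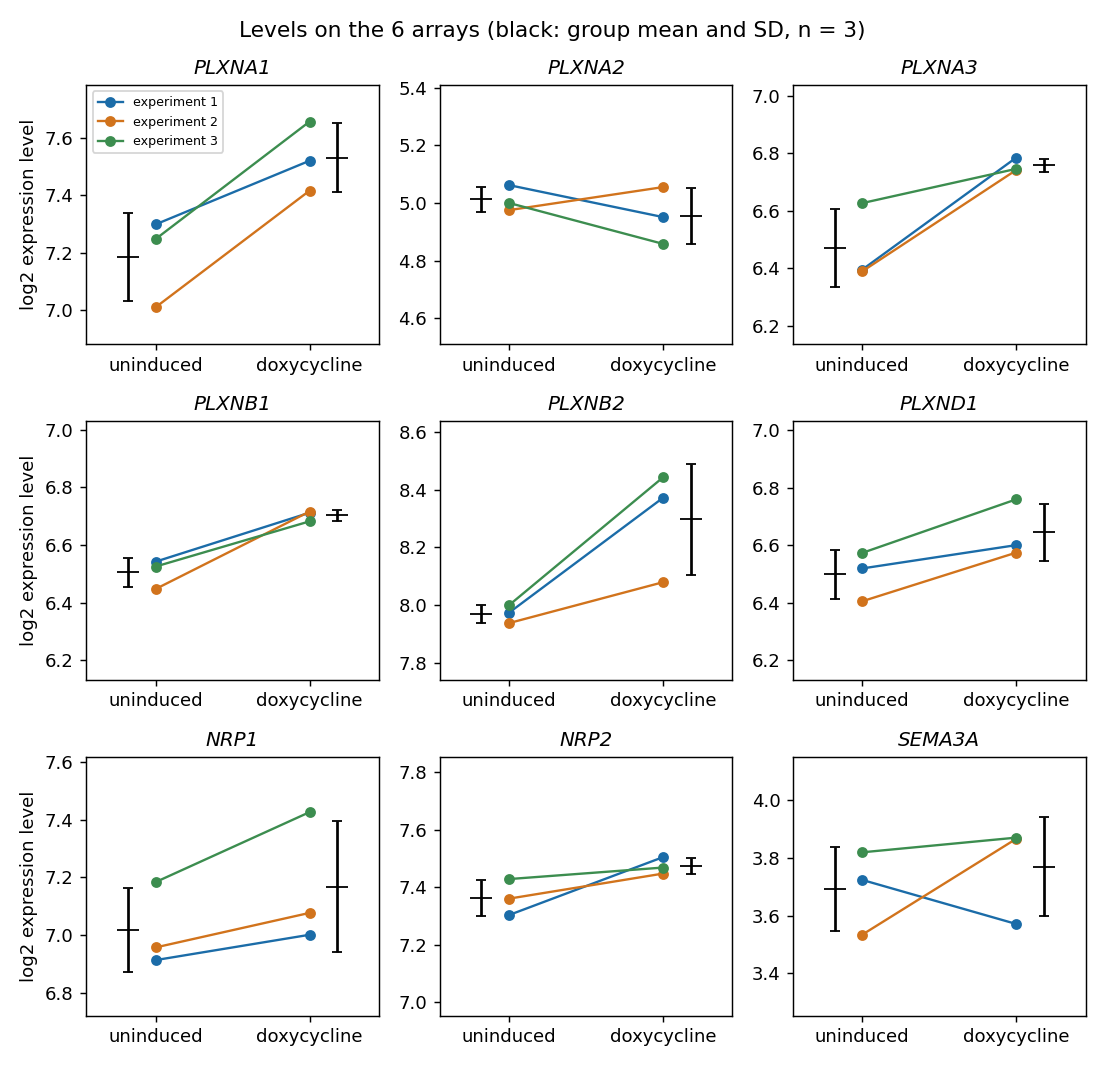
Log2 expression level of each gene (y axis, all panels spanning 0.9) on the uninduced and doxycycline arrays of the 3 experiments (coloured points joined by lines), with the group mean and SD in black (n = 3). The lines of *PLXNA1*, *PLXNA3*, *PLXNB1*, *PLXNB2*, *PLXND1*, *NRP1* and *NRP2* all slope upward, while those of *PLXNA2* and *SEMA3A* cross.

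*PLXNA1* (ENSG00000114554_at) encodes a class A plexin that serves as signalling receptor for SEMA3A together with NRP1. Its uninduced levels were 7.30, 7.01 and 7.25 in experiments 1, 2 and 3, and its doxycycline levels were 7.52, 7.42 and 7.66. All doxycycline arrays lay above all uninduced ones, with a gap of 0.12 between the nearest arrays of the groups. The mean moved from 7.19 ± 0.15 (SD, n = 3) to 7.53 ± 0.12 (SD, n = 3), and the differences were 0.22, 0.41 and 0.41. The log2 fold change was 0.34 (standard error 0.074, 95% interval 0.14 to 0.55), the largest of the 9 genes. In limma p was 0.00964 before and 0.35 after adjustment, and the exact sign-flip permutation test gave p = 0.25, the smallest that 3 pairs allow. The call was lost in the methods' t-test and in limma without experiment 2 or without experiment 3, where the log2 fold change was 0.31 in both cases.

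*PLXNB2* (ENSG00000196576_at) encodes a class B plexin that is widely present in epithelia and binds class 4 semaphorins. It stood at 7.97, 7.94 and 8.0 in the uninduced cells, the narrowest spread of any of the 9 genes within that group, and at 8.37, 8.08 and 8.44 in the doxycycline cells. The groups did not overlap, but the doxycycline array of experiment 2 lay well below the other two, and the differences were 0.40, 0.14 and 0.44. The log2 fold change was 0.33 (standard error 0.089, 95% interval 0.080 to 0.58), with p = 0.0213 in limma (0.36 after adjustment) and p = 0.25 in the exact sign-flip permutation test. The methods' t-test did not call it. Without experiment 1 the log2 fold change was 0.29 and without experiment 3 it was 0.27, and the call was lost in both cases, while without experiment 2 it was 0.42 and the limits were met.

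*PLXNA3* (ENSG00000130827_at) encodes another class A plexin, which pairs mainly with NRP2 as a receptor for SEMA3F. Its levels were 6.40, 6.39 and 6.63 without and 6.79, 6.74 and 6.75 with doxycycline. The 3 doxycycline arrays were close together (SD 0.024, n = 3) and above every uninduced array, and the uninduced array of experiment 3 was the one nearest to them. The differences were therefore uneven, at 0.39, 0.35 and 0.12. The log2 fold change of 0.29 (standard error 0.085, 95% interval 0.052 to 0.52), or 1.22-fold, just missed the study's limit on p, with p = 0.0275 in limma (0.37 after adjustment) and p = 0.25 in the exact sign-flip permutation test, whereas *PLXNB2* had just met it. The gene passed the limits without experiment 3, where the value was 0.37, and in the fit without the block. The study's own list of changed genes, drawn from the same arrays, includes *PLXNA3*, so these values are not independent evidence of its direction.

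*PLXNB1* (ENSG00000164050_at), the gene of the class B receptor for SEMA4D, was at 6.54, 6.45 and 6.53 in uninduced and at 6.71, 6.72 and 6.68 in doxycycline cells. Both groups were tight, and their nearest arrays were 0.14 apart, the widest gap among the 9 genes. The differences of 0.17, 0.27 and 0.16 were alike in size, with an SD of 0.061. The log2 fold change of 0.20 (standard error 0.065, 95% interval 0.019 to 0.38) corresponded to 1.15-fold and was thus under the fold change limit, with p = 0.0375 in limma (0.38 after adjustment) and p = 0.25 in the exact sign-flip permutation test.

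*PLXND1* (ENSG00000004399_at) encodes the receptor that binds SEMA3E without a neuropilin and is best known from blood vessel patterning. The uninduced levels were 6.52, 6.41 and 6.57, and the doxycycline levels 6.60, 6.57 and 6.76. The groups only just stood apart, since the doxycycline array of experiment 2 exceeded the uninduced array of experiment 3 by 0.001. Within experiments the differences were 0.081, 0.17 and 0.19, and the log2 fold change was 0.15 (standard error 0.064, 95% interval -0.033 to 0.32, adjusted p = 0.47 in limma).

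*PLXNA2* (ENSG00000076356_at), the class A plexin named as a KIAA1199 partner, showed no such pattern. Its levels were 5.06, 4.98 and 5.0 in the uninduced and 4.95, 5.06 and 4.86 in the doxycycline cells, so the groups overlapped. The differences were -0.11, 0.080 and -0.14, and the log2 fold change was -0.058 (standard error 0.077, adjusted p = 0.81 in limma). The 95% interval from -0.27 to 0.16 leaves room for any change between 0.83-fold and 1.12-fold. The uninduced level of this probe set exceeded 38.9% of all probe sets, and that of the other plexins between 66.1% and 85.3%. These positions describe brightness and do not rank transcript amounts, because probes differ in affinity, and whether *PLXNA2* was above background was not measured here, since no detection calls were used. From their microarray screen, that is from these same arrays, the authors judged that the gene seemed not to be expressed in SW480 cells. Its values may thus be those of a probe set at background, in which case they would not show that its transcript was unchanged.

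**Figure D2:**
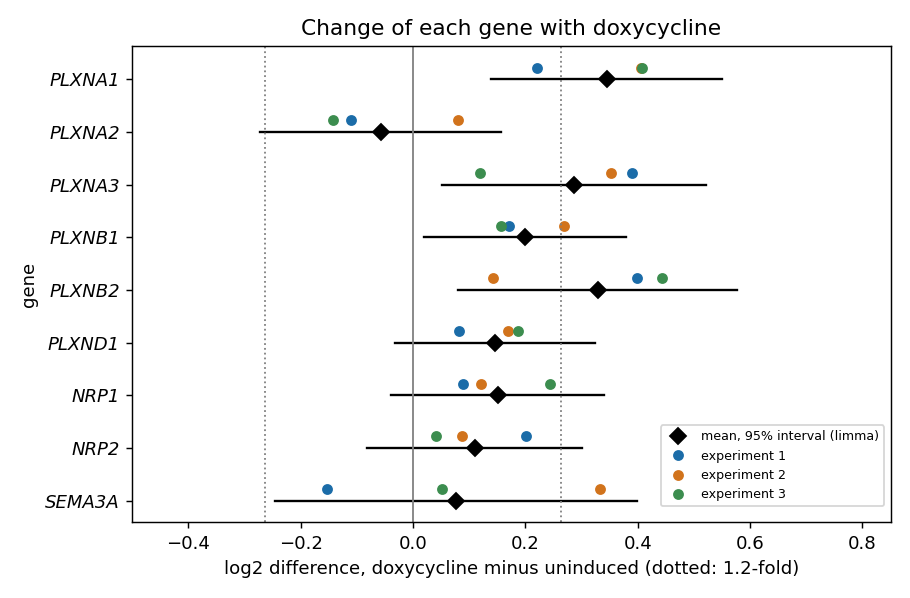
Log2 difference, doxycycline minus uninduced, of each gene (x axis), with the 3 experiments as coloured points, the mean as a black diamond and the 95% interval from limma as a line. The intervals of *PLXNA1*, *PLXNA3*, *PLXNB1* and *PLXNB2* lie above 0, and the means of *PLXNA1*, *PLXNA3* and *PLXNB2* lie beyond the dotted line of 1.2-fold.

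Because 5 plexins were higher together, the 250 bases upstream of the RefSeq start of each gene were read for the GC box, a motif bound by SP1 and related factors at many promoters of broadly expressed genes. It was searched as GGGCGG and, for the other strand, as CCGCCC, with overlapping matches counted separately. RefSeq (GRCh38.p14) gave an entry for 7 of the 9 genes, with 2 starts for *PLXNB1*, and none was used for *NRP1* and *SEMA3A*. The build behind the array annotation is not given in the sources used here, so the genes were matched by symbol. The stretches of both genes past the limits, of *PLXNA3* close to the limit and of *PLXNA2*, whose groups overlapped, are shown 5′ to 3′ in the direction of the gene, ending at the base before the start, with GC box letters in capitals.
PLXNA1 (chr3:126982865-126983114, plus strand): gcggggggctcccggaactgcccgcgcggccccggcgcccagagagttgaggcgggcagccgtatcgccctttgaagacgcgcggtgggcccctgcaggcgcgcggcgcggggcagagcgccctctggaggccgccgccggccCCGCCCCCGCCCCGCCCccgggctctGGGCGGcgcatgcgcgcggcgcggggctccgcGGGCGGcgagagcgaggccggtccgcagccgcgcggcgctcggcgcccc
PLXNB2 (chr22:50301670-50301919, minus strand): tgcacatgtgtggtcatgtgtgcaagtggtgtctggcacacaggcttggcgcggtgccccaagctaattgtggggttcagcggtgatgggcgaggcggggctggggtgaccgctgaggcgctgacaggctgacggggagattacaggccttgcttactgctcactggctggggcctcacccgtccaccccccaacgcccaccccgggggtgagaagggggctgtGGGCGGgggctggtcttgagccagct
PLXNA3 (chrX:154458031-154458280, plus strand): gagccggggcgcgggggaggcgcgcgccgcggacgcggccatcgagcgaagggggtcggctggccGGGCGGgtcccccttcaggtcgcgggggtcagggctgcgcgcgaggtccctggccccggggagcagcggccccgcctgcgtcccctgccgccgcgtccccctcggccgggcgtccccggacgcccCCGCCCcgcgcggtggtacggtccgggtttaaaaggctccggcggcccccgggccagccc
PLXNA2 (chr1:208244385-208244634, minus strand): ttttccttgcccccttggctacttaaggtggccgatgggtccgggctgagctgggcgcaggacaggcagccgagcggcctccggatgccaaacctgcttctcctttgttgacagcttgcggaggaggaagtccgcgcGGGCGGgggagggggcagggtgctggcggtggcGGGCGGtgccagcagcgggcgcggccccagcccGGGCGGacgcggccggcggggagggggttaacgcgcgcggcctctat
These stretches held 5 matches for *PLXNA1*, 1 for *PLXNB2*, 2 for *PLXNA3* and 3 for *PLXNA2*. *PLXND1* held 9, *NRP2* held 3, and of the *PLXNB1* starts one held 5 and the other 0. At least 1 GC box stood in 42.6% of the 35116 RefSeq stretches of the same length, at least 3 in 13.9% and at least 5 in 4.15%. GC made up 84.4% of the bases for *PLXNA1*, 82.8% for *PLXNA3*, 66.4% for *PLXNB2* and 72.4% for *PLXNA2*, against a median of 58% over all stretches. None of the 8 stretches held the E-box CACGTG (6.34% of all stretches) or TATAAA on either strand (10.7%). No binding was measured in these cells, and the matches describe the letters only.

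**Figure D3:**
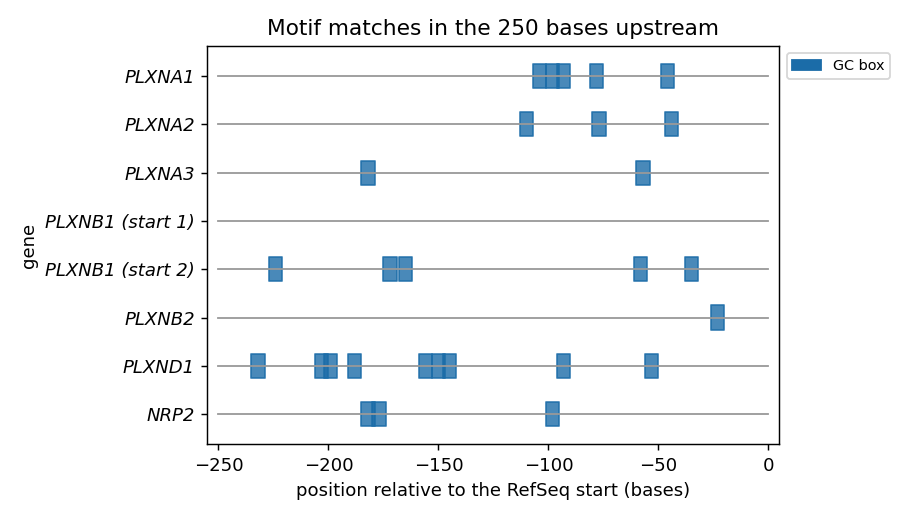
Positions of GC box matches (blue) in the 250 bases upstream of the RefSeq start, in bases relative to it (x axis), for the 7 genes with an entry and both starts of *PLXNB1*. *PLXND1* held the most matches (9), and *PLXNA2* held 3.

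The neuropilins are co-receptors with short cytoplasmic tails that bind class 3 semaphorins and also vascular endothelial growth factors. *NRP1* (ENSG00000099250_at), the partner of PLXNA1 in SEMA3A signalling, was at 6.91, 6.96 and 7.18 in uninduced and at 7.00, 7.08 and 7.43 in doxycycline cells. Experiment 3 was higher than the others in both groups, and the uninduced array of that experiment exceeded both other doxycycline arrays, so the groups overlapped although every difference was positive (0.088, 0.12 and 0.24). The log2 fold change was 0.15 (standard error 0.069, 95% interval -0.040 to 0.34, adjusted p = 0.48 in limma). *NRP2* (ENSG00000118257_at) was at 7.30, 7.36 and 7.43 without and at 7.50, 7.45 and 7.47 with doxycycline. Its groups stood apart by 0.019, and its differences of 0.20, 0.087 and 0.040 averaged 0.11 (standard error 0.069, 95% interval -0.081 to 0.30, adjusted p = 0.58 in limma). Neither neuropilin passed the study's limits in limma or in the methods' t-test.

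*SEMA3A* (ENSG00000075213_at) encodes the secreted ligand that signals through NRP1 and class A plexins. Its probe set was the dimmest of the 9, its uninduced level exceeding only 20.6% of all probe sets. It was at 3.72, 3.53 and 3.82 in uninduced and at 3.57, 3.87 and 3.87 in doxycycline cells, and the groups overlapped. The differences of -0.15, 0.33 and 0.051 had an SD of 0.24, the widest of the 9 genes, around a mean of 0.077 (standard error 0.12, 95% interval -0.25 to 0.40, adjusted p = 0.83 in limma). Without experiment 2 the mean was -0.051, so the direction rested on that experiment.

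Across the experiments the genes did not vary evenly. The uninduced array of experiment 2 was the lowest of its group for 7 of the 9 genes, as it was for 31.3% of all probe sets, and the uninduced array of experiment 3 was the highest for 6 of them, against 33.9%. With doxycycline, experiment 2 held the lowest array for 5 genes, against 32.5% of all probe sets, and experiment 3 the highest for 5, against 35.2%. In the fit without the block, leaving out the uninduced array of experiment 2 lowered the log2 fold change of *PLXNA1* from 0.34 to 0.26 and that of *PLXND1* from 0.15 to 0.098, and no gene then passed the limits. The median log2 difference over the 6 plexins was nevertheless similar in the experiments, at 0.20, 0.22 and 0.17, while that over all probe sets was -0.004, 0.006 and 0.007.

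The changes were also set beside probe sets of similar brightness. *PLXNA1*, *PLXNB2* and both neuropilins were among the brightest 25% of probe sets by their mean, *PLXNA3*, *PLXNB1* and *PLXND1* among the next 25%, *PLXNA2* among the 25% below these and *SEMA3A* among the dimmest 25%. In the brightest 25% the log2 fold change had a median of 0.0033 and a 90th percentile of 0.22. *PLXNA1* and *PLXNB2* exceeded the latter, and *NRP1* (0.15) and *NRP2* (0.11) did not. The study's limits were passed upward by 4.93% of the brightest 25%, against 2.9% of all probe sets. In the 25% that held *PLXNA3*, *PLXNB1* and *PLXND1* the 90th percentile was 0.18, which *PLXNA3* (0.29) and *PLXNB1* (0.20) exceeded and *PLXND1* (0.15) did not. The groups stood apart upward for 15.2% of the brightest 25% and for 8.86% of the next 25%, so this pattern was commoner among bright probe sets than over the whole table.

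**Figure D4:**
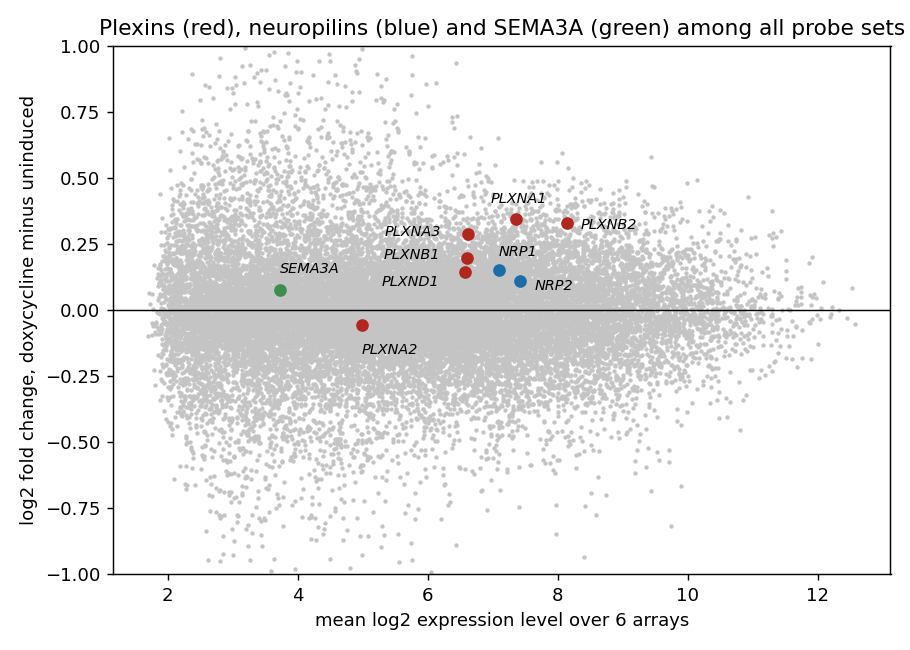
Log2 fold change (y axis) against the mean log2 level over the 6 arrays (x axis) for all probe sets (grey; 54 lie outside the drawn range), with plexins in red, neuropilins in blue and *SEMA3A* in green. All but *PLXNA2* lie above 0 (*SEMA3A* only with experiment 2 included), and *PLXNA1* and *PLXNB2*, at 0.34 and 0.33, lie above the 90th percentile of the brightest 25% of probe sets (0.22).

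The gene with the largest limma statistic, *PLXNA1*, had levels that ran most nearly parallel with those of ENSG00000084207_at and ENSG00000103335_at (Pearson r = 0.998 for both over the 6 arrays, as a description). The first was at 10.7, 10.6 and 10.7 in uninduced and 10.8, 10.8 and 10.9 in doxycycline cells, and its log2 fold change was 0.18. The second had a log2 fold change of 0.23. In all, 294 probe sets outside the 9 genes (1.11%) had an r over 0.95 with *PLXNA1*.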

How the data were processed

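Total RNA from 3 doxycycline and 3 uninduced cultures had been hybridized to exon arrays of Affymetrix. Made with RMA per the labels, the log2 expression levels deposited by the authors cover 26445 probe sets named by Ensembl gene identifier. Their common distribution shows a quantile normalization between arrays. Version and genome build are not given in the sources used here. Groups and experiment numbers were taken from the sample titles.

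The log2 levels were fitted by lmFit and eBayes of limma (version 3.58.1, under R version 4.3.3), 2-sided and with the experiment as a block, since the study's test was paired. Adjusted p-values are those of Benjamini and Hochberg over the whole table. The methods' t-test (paired) was run on the same values, whereas the study had tested values of transcript clusters. Its results here are therefore not those of the study. The scripts were tested on simulated data. The alternatives are listed in the closing section. P-values measure the spread among 3 experiments with 1 clone, and the number of arrays limits the precision.

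All 9 genes are named in the text, together with the probe sets most like the member with the largest limma statistic. The members and lists were chosen with earlier results of these data known. No table used here pairs other Ensembl identifiers with symbols. A list of further semaphorin pathway genes, other plexins among them, was therefore not analysed here. The same holds for markers of colorectal epithelium and of other cell types, and for KIAA1199 itself.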

Additional observations from a re-analysis of the deposited data

How the results depend on the processing

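Of the 9 genes, 2 passed the study's limits in limma with the experiment as a block, and none passed them downward in any setting. A further quantile normalization, median centring, the robust prior, the removal of the level trend by lowess and the absence of a fold change minimum also gave 2, the first 2 of these changing nothing since the arrays already share a distribution. The fit with no replicate block, the prior with a trend and the table without its dimmest 25% gave 3, with *PLXNA3* added, where 3.97%, 5.99% and 6.92% of all probe sets passed, against 5.83% with the block. The methods' t-test gave 0, and so did a fold change minimum of 1.5; the cause was not tested for the former, and no gene changed 1.5-fold. Leaving out 1 experiment gave 1 in each case (*PLXNA1*, *PLXNB2* or *PLXNA3* without experiment 1, 2 or 3). Then 5.08%, 3.76% and 3.73% of all probe sets passed. Leaving out 1 array without the block gave 0 to 2, with 2.63% to 5.15% of all probe sets. It gave 0 without the doxycycline array of experiment 1 or 3 or the uninduced one of experiment 2. It gave 1 without the uninduced array of experiment 1 (leaving *PLXNA1*) or 3 (leaving *PLXNA3*). With an adjusted p under 0.05 the count was 0 in limma and in all 17 alternatives, where the smallest adjusted p of any of the genes was between 0.18 and 0.85. At an unadjusted p under 0.05, 4 of the 9 passed in limma and 3 in the methods' t-test, against 12.3% and 10.4% of all probe sets. The sets differed: the t-test gave *PLXNA1*, *PLXNB1* and *PLXND1*, so *PLXNA3* and *PLXNB2* dropped out and *PLXND1* entered.

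The 7 genes higher in all experiments stayed so in all 17 alternatives. Leaving out an experiment, or for all but *NRP1* an array, could not have reversed this, nor could the block, prior or test. *PLXNA1* rose by 0.26 to 0.41, *PLXNB2* by 0.26 to 0.44, *PLXNA3* by 0.24 to 0.37 and *PLXNB1* by 0.16 to 0.22. *PLXND1* (0.088 to 0.18) and *NRP1* (0.021 to 0.23) were lowest without the doxycycline array of experiment 3 (no block). *NRP2* (0.064 to 0.14) was lowest without experiment 1. *PLXNA2* stayed lower, by -0.13 to -0.0093. *SEMA3A* rose to 0.192 without experiment 1, reversed to -0.051 without experiment 2 and to -0.0023 without its uninduced array alone (no block). It has no value without the dimmest probe sets. Same-numbered arrays deviated together with an r of 0.039, 0.049 and 0.13 over the probe sets, which leaves the pairing unsettled by the values. The settings planned for further pathway genes were not run because their identifiers could not be named. Signal over background was not measured, which limits *PLXNA2* and *SEMA3A* most.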
